A study of Mus musculus with 18 samples.

Results

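The peaks described here lie at 10 genes of microglia and the complement system in the mouse retina: C1qa, C1qb, C1qc, C3, C4b, Tyrobp, Trem2, Cx3cr1, Csf1r and Spi1, of 21924 protein-coding genes. Each gene was given a window from 10 kb upstream of its start to its end on mm10, and every peak overlapping that window was taken. Merging the peaks of all libraries gave 31 regions at these genes out of 99792 in the series. Of the 31, 21 were called in at least 2 libraries, against 73567 such regions in the series.

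Open chromatin was measured by ATAC-seq, in which a transposase cuts accessible DNA, in 18 libraries of bulk retina from WT mice, in 6 groups of 3. Mice aged 3 months (3mo) or 18 months (18mo) gave retinas of eyes whose intraocular pressure (IOP) had been raised to 30 mmHg during 1 hour, retinas of the contralateral eyes, or, from other animals, untreated retinas. The labels place the IOP and contralateral retinas on day 2 after IOP, while the study's text gives another day. A contralateral retina came from an animal whose other eye had been under pressure, and the study used C57BL/6J mice. The labels share a treatment text that also names dasatinib or vehicle injections, but no label assigns a library to either. They also share an extraction text that describes crosslinking and immunoprecipitation, whereas transposition of fresh nuclei is what the study's methods give. The study describes its accessibility data as 3 biological replicates a group, while the labels give a replicate number and no animal, and the p-values measure the spread between these libraries.

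Microglia are the resident macrophages of the retina and lie mainly in its synaptic layers. C1q, made largely by microglia, starts the classical complement pathway, which activates C4 and then C3, and deposited C3 fragments are read by receptors of phagocytes. Csf1r and Cx3cr1 receive survival and restraining signals, Trem2 signals through the adaptor Tyrobp, and the ETS factor PU.1, the product of Spi1, is required to form the lineage. Microglia are a small share of retinal cells. In bulk retina, fewer microglia and less open chromatin per microglial cell cannot be told apart.

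The libraries held 36011 to 66160 peaks. Their peak widths set the untreated libraries apart from the others, but not IOP from contralateral ones. The shortest listed peak was 79 to 89 bp in the 6 untreated libraries, 114 to 122 bp in 5 of the libraries from IOP or contralateral eyes, and 148 to 157 bp in the other 7. The tissue label fitted the data: the promoters of all 8 rod photoreceptor markers, among them Gnat1, Pde6b, Nrl and Sag, held a called peak in 18 of 18 libraries. Among all protein-coding genes 51.7% had such a promoter, so this count alone does not single out rods.

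Regions that carry the results are printed below as 201 bases centred on the median summit, 5′ to 3′ on the plus strand of mm10, read from the GRCm38 reference genome. They are the distal regions nearest to C1qa, C1qb and C1qc, Tyrobp, Trem2 and Cx3cr1, the intronic region of Spi1 called in every library, and an intronic region in the Cx3cr1 window with the largest IOP difference. Capitals mark matches, on either strand, to any of 4 motifs: the PU.1 core GAGGAA, the photoreceptor factors CRX and OTX2 TAATCC, AP-1 TGANTCA, which reads alike on both strands, and a CTCF core of CC, 3 bases of any kind, AG, 2 bases of any kind and GGC.
C1qa upstream (chr4:136904772-136904972): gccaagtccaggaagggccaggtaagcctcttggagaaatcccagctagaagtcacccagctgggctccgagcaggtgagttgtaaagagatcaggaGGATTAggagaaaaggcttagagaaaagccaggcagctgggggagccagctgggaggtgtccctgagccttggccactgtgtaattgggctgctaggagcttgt
C1qb and C1qc upstream (chr4:136894059-136894259): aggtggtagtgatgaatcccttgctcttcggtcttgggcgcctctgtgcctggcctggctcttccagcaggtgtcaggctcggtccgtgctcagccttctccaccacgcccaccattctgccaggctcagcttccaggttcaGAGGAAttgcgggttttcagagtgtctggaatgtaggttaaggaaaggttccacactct
Tyrobp upstream (chr7:30407266-30407466): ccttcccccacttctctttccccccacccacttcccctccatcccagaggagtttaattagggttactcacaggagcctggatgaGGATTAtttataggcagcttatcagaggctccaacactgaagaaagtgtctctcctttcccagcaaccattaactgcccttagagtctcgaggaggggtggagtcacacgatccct
Trem2 upstream (chr17:48336940-48337140): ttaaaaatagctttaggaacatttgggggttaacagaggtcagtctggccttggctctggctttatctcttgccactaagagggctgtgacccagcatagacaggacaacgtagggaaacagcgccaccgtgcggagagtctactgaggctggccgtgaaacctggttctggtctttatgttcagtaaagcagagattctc
Spi1 intron (chr2:91101468-91101668): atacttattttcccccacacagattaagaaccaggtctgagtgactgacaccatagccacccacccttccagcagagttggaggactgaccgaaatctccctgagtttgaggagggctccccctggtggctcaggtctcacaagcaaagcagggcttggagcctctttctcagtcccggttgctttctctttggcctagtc
Cx3cr1 upstream (chr9:120073287-120073487): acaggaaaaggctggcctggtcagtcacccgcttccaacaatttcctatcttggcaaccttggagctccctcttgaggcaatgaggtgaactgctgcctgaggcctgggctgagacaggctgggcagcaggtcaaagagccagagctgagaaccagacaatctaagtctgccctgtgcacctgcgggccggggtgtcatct
Cx3cr1 window intron (chr9:120002153-120002353): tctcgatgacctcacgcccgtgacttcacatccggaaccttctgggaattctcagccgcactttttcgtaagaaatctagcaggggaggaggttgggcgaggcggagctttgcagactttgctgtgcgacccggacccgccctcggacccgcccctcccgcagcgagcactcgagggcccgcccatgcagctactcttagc

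The 250 bases before the RefSeq start are printed for 3 of the genes whose promoters held no called summit, on the strand of the gene in GRCm38.p6. RefSeq promoter sequences were matched for 5 of the 10 genes, C1qb, C1qc, C3, Trem2 and Cx3cr1.
C1qb promoter (chr4:136886201-136886450, minus strand): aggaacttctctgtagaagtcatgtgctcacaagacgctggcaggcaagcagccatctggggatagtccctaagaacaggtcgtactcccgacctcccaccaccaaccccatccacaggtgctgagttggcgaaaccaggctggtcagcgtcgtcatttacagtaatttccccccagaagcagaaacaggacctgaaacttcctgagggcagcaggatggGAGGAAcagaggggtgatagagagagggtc
Trem2 promoter (chr17:48346151-48346400, plus strand): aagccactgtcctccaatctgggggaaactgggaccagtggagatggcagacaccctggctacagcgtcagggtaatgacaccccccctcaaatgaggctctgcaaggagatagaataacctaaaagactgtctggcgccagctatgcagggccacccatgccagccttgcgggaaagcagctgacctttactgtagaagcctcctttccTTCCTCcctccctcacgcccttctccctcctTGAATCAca
Cx3cr1 promoter (chr9:120068297-120068546, minus strand): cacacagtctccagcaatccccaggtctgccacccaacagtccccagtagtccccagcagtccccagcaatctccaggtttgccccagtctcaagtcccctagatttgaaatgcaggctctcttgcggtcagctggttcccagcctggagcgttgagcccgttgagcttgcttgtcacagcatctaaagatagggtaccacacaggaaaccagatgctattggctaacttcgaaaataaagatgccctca

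The PU.1 core lay in 1 of the 21 regions called in at least 2 libraries, the one shared by C1qb and C1qc, and in 16.3% of 73449 regions of the series on assembled chromosomes. The CRX and OTX2 motif lay in 4 of the 21, among them those upstream of C1qa and Tyrobp, against 15.4% of the series. CTCF matches lay in 4 of the 21, against 17%, and AP-1 in 0 of the 21, against 6.61%. In the 250 bases before the start, the PU.1 core was found in 3 of the 5 genes, C1qb, C1qc and Trem2, and in 23.3% of 32851 RefSeq promoters. AP-1 was found at Trem2 alone among the 5, against 6.75% of promoters. A match says only that these letters stand in the window.

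The promoters of the microglial and complement genes were mostly not called in retina. A promoter was taken as the 1 kb before and the 100 bp after a GENCODE transcript start. In 8 of the 10 genes, C1qa, C1qb, C3, Tyrobp, Trem2, Cx3cr1, Csf1r and Spi1, it held a peak in 0 of 18 libraries. Among all protein-coding genes 35.8% had such a promoter, while 51.7% had a promoter called in all 18 libraries and none of the 10 did. The C4b promoter was called in 1 library, 18mo IOP replicate 1. The peaks at the C1qc promoter belonged to a region whose median summit lay 1094 bases upstream, just outside it. Summits of single libraries ran from chr4:136894051 to 136894247, and not all lay outside. The C1qc promoter was reached in 9 libraries. These were 3 of 3 contralateral and 3 of 3 IOP libraries at 3mo, 2 of 3 contralateral and 1 of 3 IOP libraries at 18mo, and 0 of 6 untreated libraries, which had the narrowest peaks. With all GENCODE transcripts, minor ones included, C3 was reached in 2 libraries and the other 9 counts stayed as they were. A promoter that was not called may be open below the threshold of the caller.

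**Figure D1:**
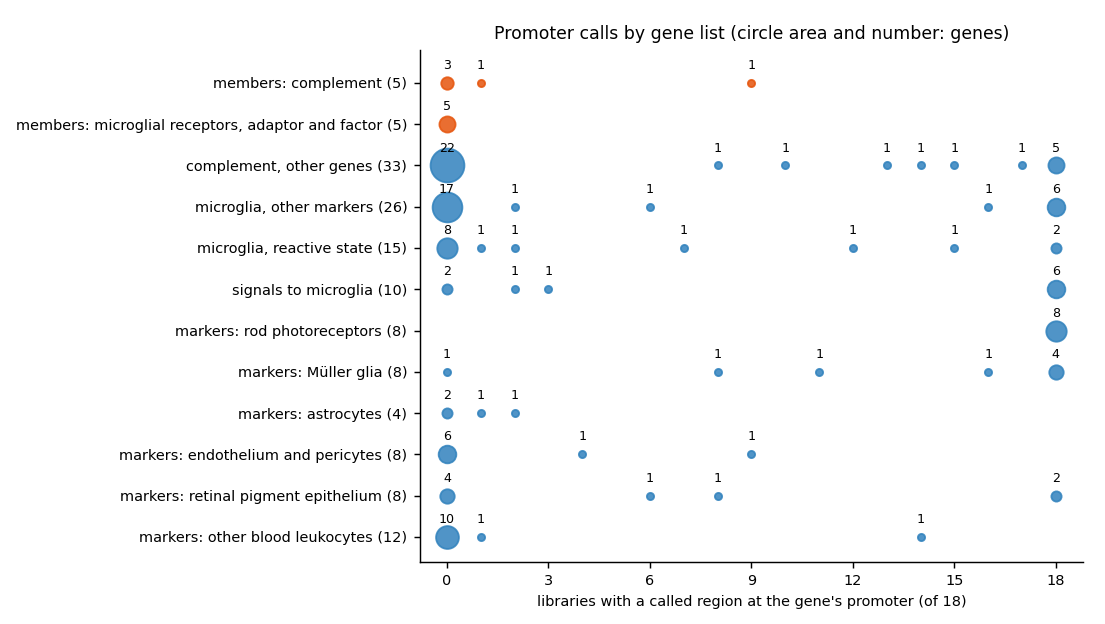
Promoter calls in the fixed gene lists. Each circle is the number of genes (printed, and shown as area) whose promoter was called in the number of libraries on the horizontal axis, with the number of measured genes of each list in brackets. The 10 genes, in orange, lie at 0, 1 and 9 libraries, while all 8 rod markers lie at 18.

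Other genes of the same pathways were read from lists chosen with earlier results of these data known. Of 33 further complement genes, 22 had a promoter called in 0 libraries, 6 in some and 5 in all 18. Those in all 18 were Cd46 and Cd59a, which restrain complement on cells, Clu and Vtn, whose secreted products restrain the terminal complex, and C8g, while Cfb, Cfp, C6 and the C3a receptor gene C3ar1 were at 0. Of 26 further microglial markers, 17 were at 0, among them P2ry12, Siglech, Aif1 and Ptprc, and 6 were at 18, among them Hexa, Olfml3 and Irf8. The lysosomal enzyme Hexa is also expressed outside microglia. Of 15 genes of reactive microglia, 8 were at 0 and 2, the lysosomal proteases Ctsd and Ctsb, at 18. A list of 10 ligands and receptors that pass signals between microglia and other cells had 6 called in all 18 libraries, against 51.7% of all protein-coding genes. Among the 6 were the Csf1r ligand gene Csf1, the Cx3cr1 ligand gene Cx3cl1 and Cd200, whereas Il34, the other Csf1r ligand gene, was at 0.

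Markers of other retinal cell types were read in the same way. Müller glia had 4 of 8 promoters called in all 18 libraries and 1 at 0. Astrocytes had 0 of 4 at 18 and 2 at 0, endothelium and pericytes 0 of 8 and 6, retinal pigment epithelium 2 of 8 and 4, and other blood leukocytes 0 of 12 and 10. The number of promoters called per library was 6 to 9 for the 26 microglial markers, 7 to 11 for the 33 complement genes and 0 to 2 for the 12 leukocyte markers. Among all listed genes, the promoter calls most like those of C1qc over the 18 libraries were those of Cd9, alike in 15 libraries, Slc1a3 in 14 and C1s2 in 13. These were picked as the highest of the lists, and the share of all protein-coding genes so alike was not determined.

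Of the 21 regions, 8 were called in all 18 libraries, that is 38.1%, against 33.6% of the regions of the series. Of these 8, 4 lay in the long Cx3cr1 window described below, 2 of them at promoters of other genes, and within RefSeq gene bounds, chosen after seeing the data, 4 of 14 regions were called in all 18. Of the 31 regions, 17 had their summit in an intron, 3 in an exon, 8 between genes and 3 in a promoter. Of those 3, 1 was the C4b promoter and 2 belonged to other genes, Gorasp1 and Ttc21a in one case and Csrnp1 in the other, that lie inside the long Cx3cr1 window. A further 10 regions were called in 1 library each. Between 13 and 21 of the 31 regions were called in a library, and all groups overlapped. The 3mo libraries called 15 ± 3.5 of them in untreated, 15.7 ± 3.1 in contralateral and 16.7 ± 1.5 in IOP retinas (mean ± SD, n = 3). The 18mo libraries called 15 ± 1.0, 17.7 ± 3.2 and 17.3 ± 4.0 in the same order.

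**Figure D2:**
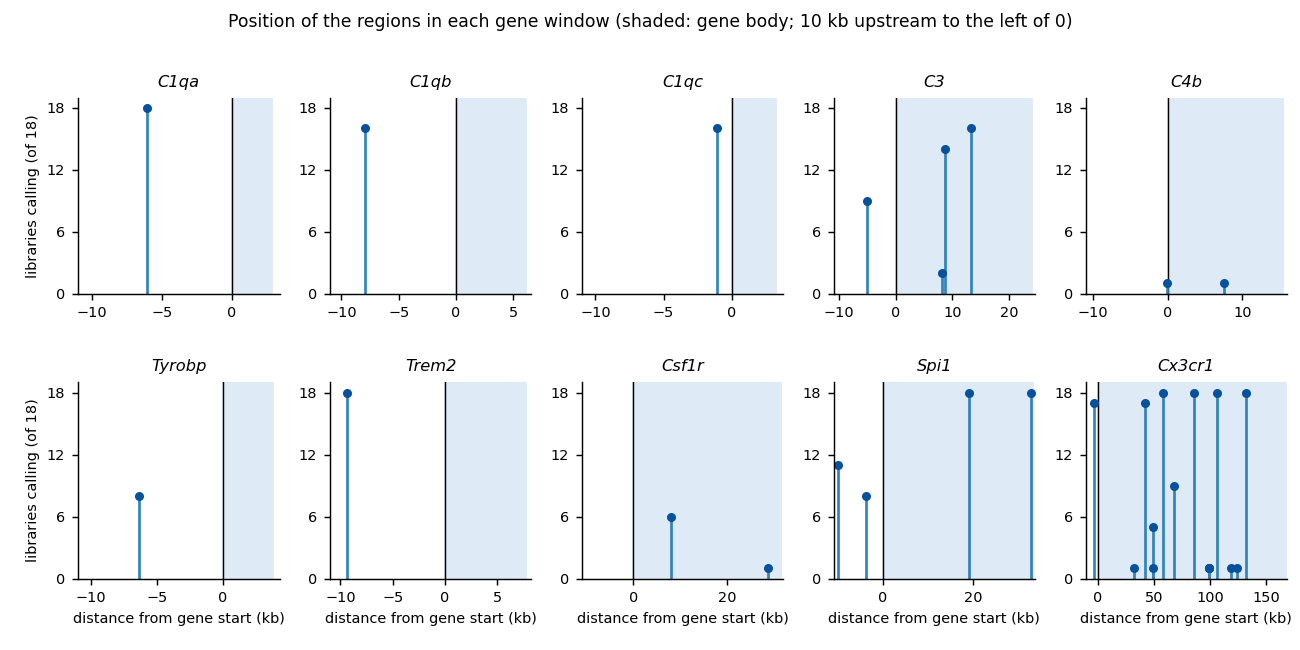
Position of the regions of each gene. The horizontal axis is the distance of the summit from the gene start in the direction of transcription (kb), the vertical axis the number of libraries that called the region (of 18), and the gene body is shaded. The windows of C1qa, Trem2 and Tyrobp held 1 region each, all upstream of the gene, and 15 of the 31 regions lay in the Cx3cr1 window.

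The C1q genes stand side by side on chromosome 4 and encode the A, B and C chains of C1q. C1qa (ENSMUSG00000036887, chr4:136895917-136898803, minus strand) had 1 region, chr4:136904570-136905908, between genes and 6.07 kb upstream of the start. It was called in 18 of 18 libraries. The fold at its summit, the pileup over the local background of the same library, was 17, 10.6 and 17.8 in 3mo untreated, 8.39, 12 and 9.61 in 3mo contralateral and 8.99, 10.2 and 8.70 in 3mo IOP libraries. At 18mo it was 14, 13.6 and 15.5 in untreated, 12.4, 11.8 and 14.1 in contralateral and 12.3, 12.7 and 8.95 in IOP libraries. All 18 ranked high in their library by −log10 q-value, between percentiles 74.5 and 91.2.

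C1qb (ENSMUSG00000036905, chr4:136880129-136886187) and C1qc (ENSMUSG00000036896, chr4:136889804-136893065), both on the minus strand, shared a single region, chr4:136893898-136894440, so that their counts are the same measurement. It lay 7.97 kb upstream of C1qb and 1094 bases upstream of C1qc. All 6 contralateral and all 6 IOP libraries called it, and 4 of the 6 untreated libraries did, with replicate 5 at 3mo and replicate 4 at 18mo missing. Its fold, 3.55 to 7.04, stood below that upstream of C1qa in every library that called it.

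C3 (ENSMUSG00000024164, chr17:57203970-57228136, minus strand), on which all complement pathways converge, had 4 regions, none at its promoter. The intronic region 13.3 kb into the gene was called in 16 libraries, in every one but 18mo IOP replicates 1 and 3. The intronic region at 8.77 kb was called in 14 libraries, the region 5.11 kb upstream in 9 and the intronic region at 8.12 kb in 2, both untreated. The C3 window held 1, 3 and 4 peaks in untreated libraries at 3mo, 2, 3 and 2 in contralateral ones and 2, 3 and 2 after IOP. At 18mo it held 3, 2 and 2 peaks, 3, 2 and 3, and 2, 2 and 0 in the same order. The library without a peak, 18mo IOP replicate 3, also had the fewest peaks of the series.

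C4b (ENSMUSG00000073418, chr17:34728380-34743882, minus strand) encodes C4, which C1 activates. Its 2 regions, at the promoter 25 bases upstream of the start and in an intron 7.52 kb into the gene, were called only in 18mo IOP replicate 1, with folds of 4.89 and 4.60. That library called the most of the 31 regions, 21. The other 17 libraries listed no peak in the window. C4b has a near-identical neighbour, C4a, and reads that match both copies make calls at either uncertain.

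The receptor genes Trem2 and Csf1r and the adaptor gene Tyrobp had few regions. Trem2 (ENSMUSG00000023992, chr17:48346401-48354147, plus strand) had 1, chr17:48336857-48337467, between genes and 9.36 kb upstream, called in 18 of 18 libraries. Tyrobp (ENSMUSG00000030579, chr7:30413760-30417585, plus strand) had 1 region, chr7:30407214-30407573, between genes and 6.39 kb upstream. It was called in 8 libraries: 3mo untreated replicate 6, 3mo IOP replicates 2 and 3, 18mo contralateral replicates 1 and 3, and 18mo IOP replicates 1, 2 and 3. Its folds were 4.19 to 5.38. Csf1r (ENSMUSG00000024621, chr18:61100598-61132149, plus strand) had an intronic region 7.99 kb from the gene start, called in 0 of 6 untreated, 3 of 6 contralateral and 3 of 6 IOP libraries. A second intronic region, at 28.8 kb, was called in 1 library, 3mo IOP replicate 2.

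Spi1 (ENSMUSG00000002111, chr2:91082390-91115756, plus strand) had 4 regions. Those in an intron 19.2 kb into the gene, chr2:91101199-91101936, and in an exon at 32.8 kb, chr2:91114964-91115617, were called in 18 of 18 libraries, with median folds of 12.5 and 13.2. The first lay 5472 bases from the nearest Spi1 transcript start, and the second 2912 bases from the start of Mybpc3, a neighbouring muscle gene. A pair of weaker regions lay between genes. The one at 10.1 kb upstream, at the edge of the window and 1906 bases from the start of its neighbour Slc39a13, was called in 6 of 6 untreated, 2 of 6 contralateral and 3 of 6 IOP libraries. The one at 3.84 kb upstream was called in 1 of 6 untreated, 5 of 6 contralateral and 2 of 6 IOP libraries.

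Cx3cr1 (ENSMUSG00000052336, chr9:119901616-120069879, minus strand), the fractalkine receptor, has in GENCODE a long transcript, so that its window measured 178 kb and ran over other genes, among them Ttc21a, Csrnp1 and Xirp1. It held 15 regions, 4 of them in all 18 libraries. These were an exonic region at 58.6 kb from the gene start (folds 13 to 19.1), a region at the Csrnp1 promoter at 86.1 kb (4.94 to 11.8), an intronic region of Ttc21a at 106 kb (6.99 to 17.5) and one at the promoters of Gorasp1 and Ttc21a at 132 kb (11.1 to 19.2). With RefSeq bounds the window was 29.6 kb and held 1 region, chr9:120073149-120073567. This region lay between genes, 3.51 kb upstream, and was called in 17 of 18 libraries, all but 3mo contralateral replicate 1, with folds of 4.36 to 9.86. At 3mo its folds were 8.30, 5.72 and 6.56 in untreated, 9.86 and 8.51 in the 2 contralateral libraries with a call, and 8.67, 7.11 and 6.90 in IOP libraries, and at 18mo 5.85, 7.92 and 6.66, then 9.72, 6.89 and 9.24, then 6.31, 6.91 and 4.36 in the same order of groups. Contralateral and IOP libraries overlapped at both ages. The other 14 regions cannot be ascribed to Cx3cr1 from these data. The one of these with the largest difference after IOP, intronic and 67.6 kb from the start, is described with the IOP comparison.

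**Figure D3:**
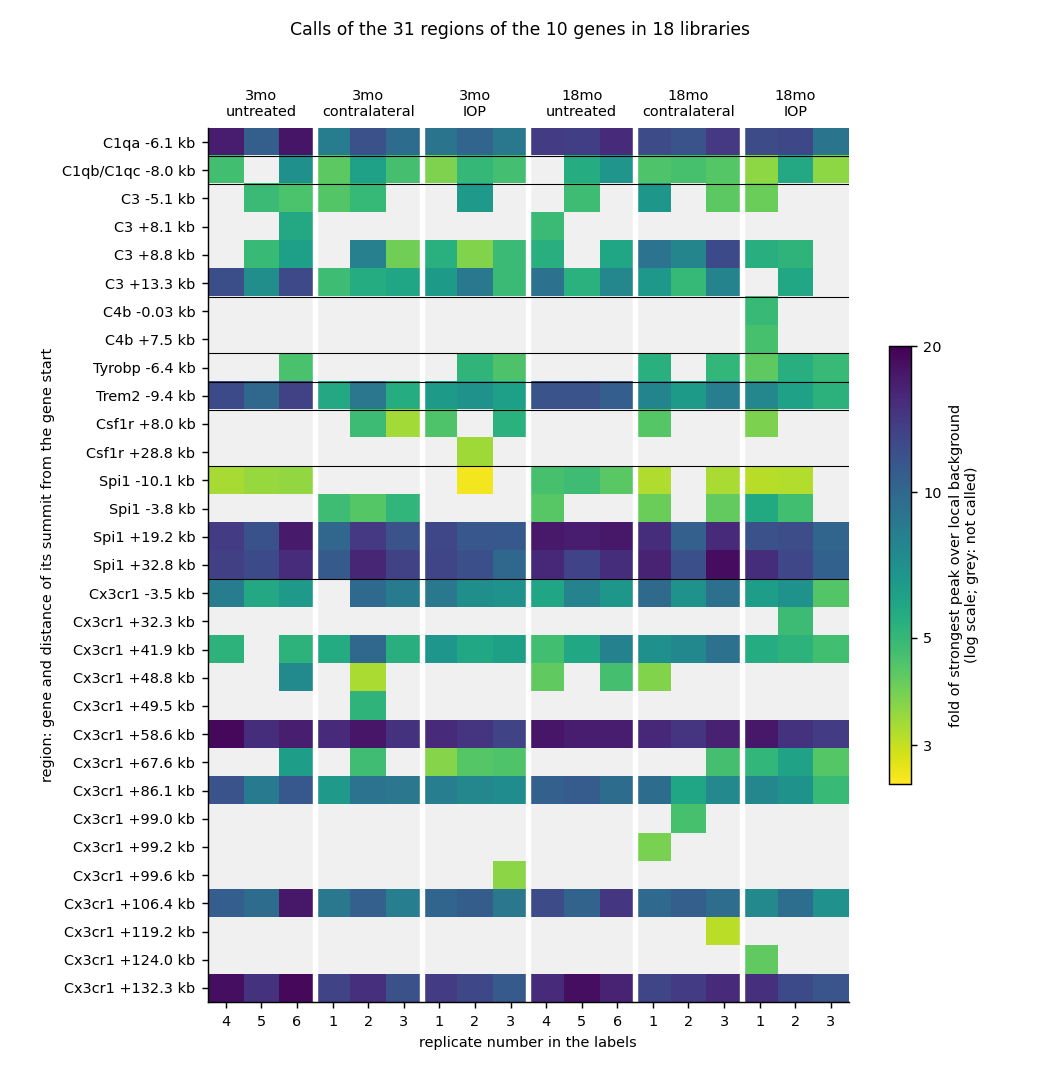
Calls of the 31 regions (rows, with gene and distance of the summit from the gene start) in the 18 libraries (columns, by group and replicate number). Colour is the fold of the strongest peak on a log scale, and grey means not called. The 8 regions called in every library have the darkest rows, and the 2 C4b regions were called in 18mo IOP replicate 1 alone.

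The first comparison asked whether ageing changed these loci, over 6 control retinas of 18mo and 6 of 3mo. No gene of the 10 had a number of peaks that differed beyond the spread. The C1qa window came nearest: its peaks numbered 1, 1 and 1 in untreated and 1, 2 and 1 in contralateral libraries at 3mo, and 2, 2 and 2 and then 1, 1 and 2 at 18mo. The means were 1.17 ± 0.41 at 3mo and 1.67 ± 0.52 at 18mo (SD, n = 6), and the 2 ages overlapped (two-sided exact permutation test, p = 0.242, Benjamini-Hochberg adjusted p = 1 over 15306 genes). The second peak was a split of the same upstream region, which 7 libraries listed as more than 1 peak. Of 8 genes tested, 0 passed at an adjusted p and 0 at an unadjusted exact p below 0.05, where 0% of all genes passed adjusted, 1.72% unadjusted as higher and 0.203% as lower at 18mo. The ages overlapped for all 8, and in the series 0.0523% of genes did not overlap as higher and 0.0131% as lower. C4b and Trem2 could not be tested, as their numbers did not vary among the controls.

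Calls did not separate the ages either. Of the 21 regions, 6 were called in more 18mo libraries, 3 in more 3mo libraries and 12 in as many. The lowest two-sided exact p was 0.545, for the Spi1 region 10.1 kb upstream, called in 5 of 6 controls at 18mo and 3 of 6 at 3mo. In the series, 3.19% of testable regions had an unadjusted exact p below 0.05 as more often called at 18mo and 0.385% at 3mo, with 0% after adjustment. Of the 21, 3 could reach such a p and 0 did. A call in all 6 libraries of one age and none of the other was made for 0 of the 21, and for 0.0788% of the series at 18mo and 0.00544% at 3mo.

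The height of the 8 regions called everywhere was compared as the log2 of the fold, quantile normalised, with limma. None passed at 18mo against 3mo, where 0.206% of 24751 regions rose and 0.101% fell. The largest positive difference was that of the Spi1 intron. Its normalised log2 folds at 3mo were 3.52, 3.44 and 3.82 in untreated and 3.59, 3.76 and 3.78 in contralateral libraries, and at 18mo 3.95, 3.88 and 3.91 and then 3.83, 3.57 and 3.83. The groups overlapped through 18mo contralateral replicate 2. The difference was 0.18 ± 0.07 (SE), with an unadjusted p of 0.0293 and an adjusted p of 0.334 in limma, and it was the 1 of 8 with an unadjusted p below 0.05, against 12.6% of all regions. Over the 8 regions the differences ran from -0.18 to 0.18 with a median of -0.05, against -0.01 for all regions.

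**Figure D4:**
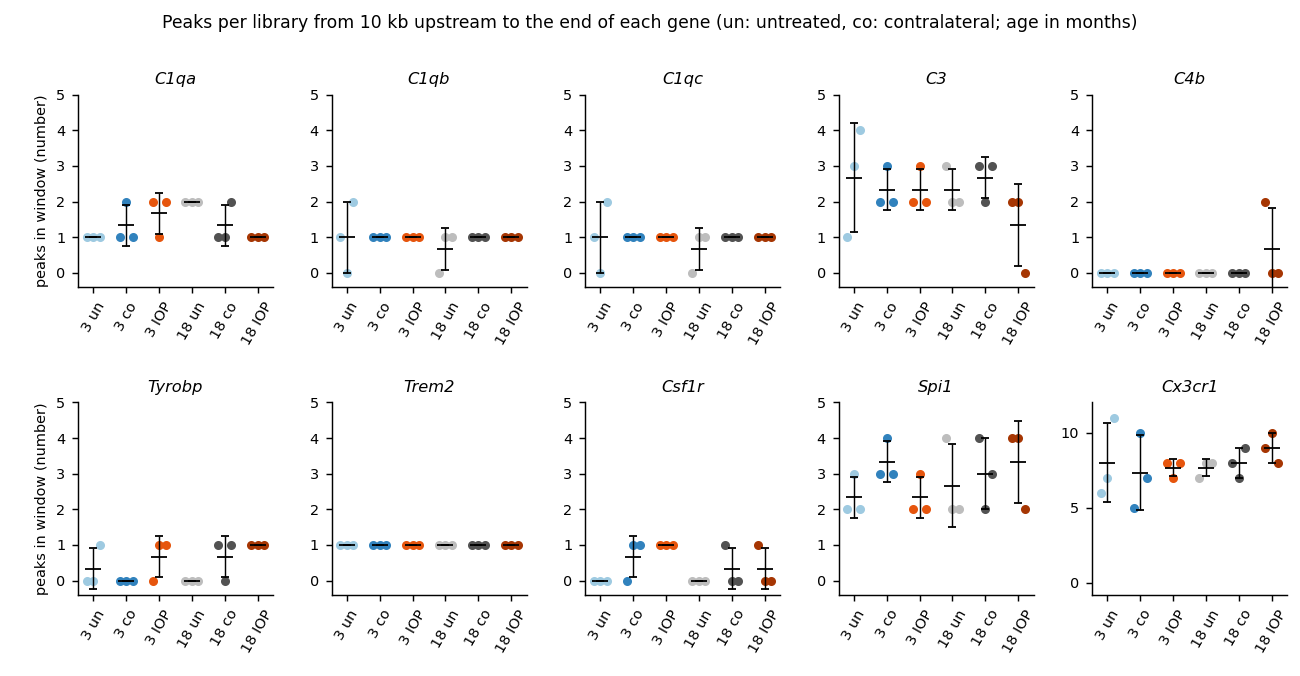
Number of peaks per library in each gene window, by group (points are libraries, bars the mean and SD of 3; un is untreated and co contralateral, with the age in months). Trem2 had 1 peak in every library, C4b had peaks in 1 library, and the groups of every gene overlapped in the 4 comparisons.

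The second comparison set IOP against contralateral retinas of the same age. With 3 libraries against 3 the smallest possible exact p is 0.1, so a single age cannot pass. No gene of the 10 had peak numbers that separated the groups. At 3mo 0.448% of tested genes separated as higher and 0.439% as lower after IOP, and at 18mo 0.295% as higher and 7.42% as lower. The lowest p at 3mo was 0.3 for Spi1 (two-sided exact permutation test), which held 3, 4 and 3 peaks in contralateral and 2, 3 and 2 in IOP libraries. At 18mo it was 0.3 for C3, which held 3, 2 and 3 and then 2, 2 and 0.

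Over both ages, the intronic region 67.6 kb into the Cx3cr1 window, chr9:120002056-120002522, had the largest difference in calls. After IOP all 6 libraries called it, with folds of 3.65, 4.34 and 4.43 at 3mo and 5.03, 6.04 and 4.34 at 18mo. Of the contralateral libraries 2 of 6 called it, 3mo replicate 2 at 4.73 and 18mo replicate 3 at 4.63, and of the untreated 1 of 6, 3mo replicate 6 at 6.26. All 3 of these controls were among the 4 libraries of the series with the most peaks. The two-sided exact p stratified by age was 0.08, the smallest that 8 calls among 12 libraries so divided allow. With 1 library left out this exact p ran from 0.02 to 0.08. It was 0.02 without either contralateral library that called the region, omissions that widen the difference by themselves. Tyrobp came next. Its upstream region was called after IOP in 5 of 6 libraries, all 3 at 18mo among them, and in 2 of 6 contralateral and 1 of 6 untreated libraries (exact p = 0.2 for IOP against contralateral). These 3 controls, too, were among the 4 libraries with the most peaks.

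For both regions the difference in calls between IOP and contralateral libraries varied with the width of peak. The regions had been chosen for their IOP difference, and this division by width was not a planned comparison. The share of the series with such counts was not determined, so the counts below do not test an IOP effect. Among the 7 libraries with shortest peaks of 148 to 157 bp, 4 of 4 from IOP eyes and 0 of 3 from contralateral eyes called the Cx3cr1 window region, and the Tyrobp region had the same counts. Among the 5 libraries with shortest peaks of 114 to 122 bp, 2 of 2 from IOP eyes and 2 of 3 from contralateral eyes called the first, and 1 of 2 and 2 of 3 the second. With every library held to the same number of peaks, 3 of 6 IOP and 0 of 6 contralateral libraries called either region (exact p = 0.2 for each). Where peaks had to cover 50% of a region, the counts were 2 and 0 of 6 for the Cx3cr1 window region (exact p = 0.4) and 2 and 1 of 6 for Tyrobp (exact p = 1). The part of peak width was not tested further. Across the 21 regions, 4 were called in more IOP libraries, 4 in fewer and 13 in as many, and 0 passed at an unadjusted p below 0.05, which only 2 could reach. In the series 1.62% of testable regions were more often and 3.43% less often called after IOP, and 0% adjusted. A call in all 6 libraries of one kind and none of the other was made for 0 of the 21, and for 0.0449% of the series after IOP and 0.0258% in contralateral retinas.

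At 3mo alone, 1 of the 21 regions was called in 3 of 3 libraries of one group and 0 of 3 of the other. This was the Spi1 region 3.84 kb upstream, chr2:91078343-91079086, called in all 3mo contralateral libraries, with folds of 4.76, 4.33 and 5.08, and in none of the 3mo IOP libraries, where 0.241% of the regions of the series behaved so. The reverse, a call only after IOP, was seen in 0 of the 21 and in 0.217% of the series. Untreated 3mo retinas did not call the Spi1 region either, and at 18mo 2 of 3 libraries called it in either eye. When every library was held to the same number of peaks, 2 of 3 contralateral libraries called it. At 18mo 0 of the 21 separated, against 0.239% of the series as called only after IOP and 2.23% only in contralateral retinas.

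The heights of the 8 constant regions did not differ after IOP beyond their error. In limma the log2 differences ran from -0.14 to 0.16 at 3mo and from -0.13 to 0.12 at 18mo, with 0 of 8 passing at either age, adjusted or not. Of 24751 regions 0.00404% rose and 0% fell at 3mo, with 3.56% unadjusted, and 0.0444% rose and 0.0768% fell at 18mo, with 12.6% unadjusted. Upstream of C1qa the differences were -0.04 ± 0.13 and -0.01 ± 0.13 (SE), upstream of Trem2 0.06 ± 0.10 and -0.01 ± 0.10, and in the Spi1 intron 0.03 ± 0.11 and -0.08 ± 0.11. The difference of the IOP effect between the ages also passed for 0 of 8 regions (lowest adjusted p = 0.898 in limma, 0 of 8 unadjusted) and for 0% of the series, where 4.58% passed unadjusted. The IOP and age comparisons share the contralateral libraries.

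**Figure D5:**
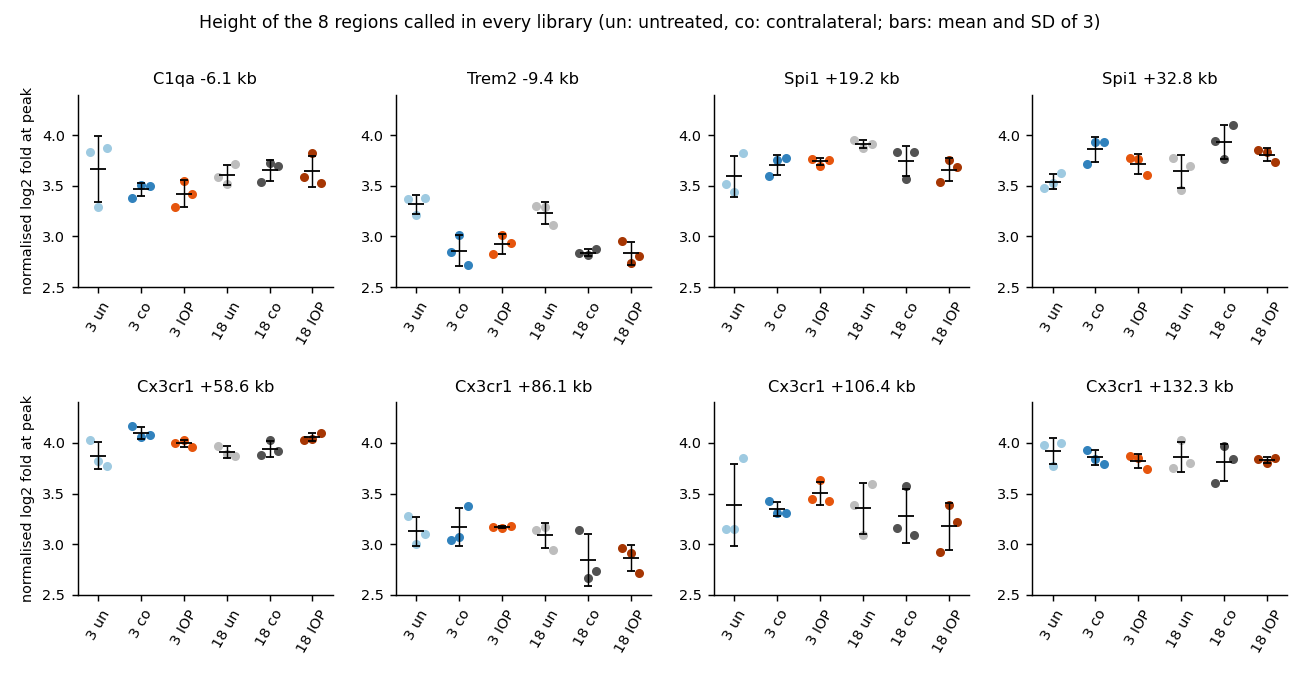
Normalised log2 fold of the 8 regions called in every library, by group (points are libraries, bars the mean and SD of 3; un is untreated and co contralateral, with the age in months). Upstream of Trem2 the 6 untreated libraries lie at 3.11 to 3.37, above all 6 contralateral libraries at 2.72 to 3.02, and the IOP libraries lie level with the contralateral ones.

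The controls of the age comparison were of 2 kinds, and 2 regions differed in height between untreated and contralateral retinas. Upstream of Trem2 the normalised log2 fold was 3.36, 3.21 and 3.37 in untreated and 2.85, 3.02 and 2.72 in contralateral libraries at 3mo, and 3.30, 3.29 and 3.11 against 2.83, 2.81 and 2.88 at 18mo. Every untreated library stood above every contralateral one, by 0.42 ± 0.07 (SE, limma adjusted p = 0.000303). The 6 IOP libraries, at 2.88 ± 0.11 (SD), stood with the contralateral ones at 2.85 ± 0.10. In the Spi1 exon the untreated libraries were lower, at 3.59 ± 0.13 against 3.90 ± 0.14 (SD, n = 6), a difference of -0.30 ± 0.07 (SE, adjusted p = 0.00565), and the ranges, 3.46 to 3.78 and 3.72 to 4.10, overlapped. Such differences were common in the series, where 17.5% of regions were higher and 15.8% lower in untreated retinas and 44% passed unadjusted, as did 3 of the 8. They moved with peak width, whose shortest value did not overlap between the 2 kinds. With the log2 of the shortest peak as a covariate the Trem2 difference was 0.29 (adjusted p = 0.113) and that of the Spi1 exon -0.53 (adjusted p = 0.0128). Peak width and kind of control cannot be told apart in these libraries.

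Calls and peak numbers did not pass an adjusted test between the kinds of control, except that 3 regions did where peaks had to cover 50% of a region, as did 6814 regions of the series. The Spi1 region 10.1 kb upstream, called in 6 of 6 untreated and 2 of 6 contralateral libraries, had a two-sided exact p of 0.0606, and its neighbour at 3.84 kb, called in 1 of 6 and 5 of 6, one of 0.0801. With 1 library left out the exact p ran from 0.0152 to 0.0606 for the first and from 0.0152 to 0.0801 for the second. The first was at 0.0152 without 18mo contralateral replicate 1 or 3. The second was there without 18mo untreated replicate 4 or 18mo contralateral replicate 2. Each of these omissions removes a library that went against the difference. Of the 21 regions 3 could reach an unadjusted p below 0.05 and 0 did, against 5.89% of testable regions more often called in untreated and 5.55% in contralateral retinas, and 0% adjusted. With equal numbers of peaks 1 region at the 10 genes passed unadjusted and 0 adjusted, and 367 regions of the series passed adjusted. A call in all 6 libraries of one kind and none of the other was made for 0 of the 21, and for 0.235% of the series in untreated and 0.0979% in contralateral retinas. In number of peaks 0 of 8 genes passed by the exact permutation test, with a lowest p of 0.182 for Csf1r, which had 0 peaks in all 6 untreated and 1 in 3 of 6 contralateral libraries. In the series 8.42% of genes passed unadjusted as higher and 1.67% as lower in untreated retinas, and 0% adjusted. The kinds of control overlapped for all 8, while 1.76% of genes did not overlap as higher and 0.0915% as lower. Among the 33 further complement genes 0 of 23 tested windows passed, adjusted or not.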

How the data were processed

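ATAC-seq peak lists of 18 retina libraries, 1 per library with replicates not pooled, were used as deposited. Per the study's text the authors called peaks with MACS2 at a q-value of up to 0.05, and the largest q-values in the lists were just below it. The submitters' processing notes name build mm10, STAR 2.7.8a, HOMER, edgeR and bedtools 2.29.2 without their roles. Removal of duplicates and mitochondrial reads, and any shift for the transposase, are not given in the sources used here. Each deposited list holds positions and a score, the −log10 q-value multiplied by 10 and cut to a whole number. The deposited fold is the ratio of pileup to local background at the summit, made by the authors' caller. The −log10 of the p-value and q-value are deposited too. The lists hold no read counts, so depth is unknown and the study's count test could not be repeated.

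Peaks overlapping by at least 1 bp were merged. Those seen in 2 or more libraries were kept and annotated at the median summit with the GENCODE M21 basic set. Peak numbers per window were compared by exact permutation tests and calls by exact tests, stratified by age for IOP, with Benjamini-Hochberg adjustment over all genes or all testable regions. The log2 fold of regions called in all 18 libraries was compared with limma 3.58.1 in R 4.3.3, without a pseudocount and after quantile normalisation. A fold at a called summit is relative to its own library, so it describes peak height and not an absolute level of accessibility. The tests were tested on simulated data. Printed promoter sequences came from RefSeq on GRCm38.p6 and region sequences from the GRCm38 genome. Replicate numbers were not taken to pair libraries. All 10 genes are described, with the regions at their promoters, in all 18 libraries, or with an unadjusted p below 0.05 or groups that do not overlap, and from other lists up to 4 genes with most and up to 4 with fewest promoter calls. Regions and genes named beyond this were chosen after their values were seen. The 10 genes and the lists were chosen with earlier results of these data known. C4a and Clec7a are not analysed here, and some results of single listed genes are not reported here. Alternatives were a q-value of 0.01, equal peak numbers, other windows, overlaps and normalisations, peak width as a covariate, a replicate block and leaving out libraries.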

Additional observations from a re-analysis of the deposited data

Results flagged for a closer look

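Among the 6 control libraries of each age, 34 sets of values at the 10 genes were examined for a library that stands apart. The rule has a chance rate of about 1 in 20 sets. That rate does not hold for peak numbers, where 1 library differing from 5 equal ones is always flagged. In all, 6 sets were flagged. In 5 of them, 1 library differed from 5 equal ones by a single peak, the smallest step such numbers have. These were the C1qa window in 3mo contralateral replicate 2, with 2 peaks against 1, and the C1qb and C1qc windows, which share their region, in 18mo untreated replicate 4, with 0 peaks against 1. They were also the Tyrobp window in 3mo untreated replicate 6 and the Csf1r window in 18mo contralateral replicate 1, with 1 peak against 0. The sixth was the height of the Spi1 intron region in 18mo contralateral replicate 2, at a normalised log2 fold of 3.57 against 3.83 to 3.95 in the other 18mo controls.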

How the results depend on the processing

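Direction was followed only for single regions picked for their difference in calls, or for an unadjusted p below 0.05 in limma. None of these changed direction under an alternative. Most results were counts of genes or regions that passed, and a count cannot change direction. For IOP at 3mo, the count of 1 region called in all libraries of one group and none of the other was 0 with equal numbers of peaks and 0 where peaks had to cover 50% of a region, and 1 to 2 when 1 library was left out, 2 without contralateral replicate 2 or IOP replicate 1. With equal numbers of peaks 2 of 3 contralateral libraries and 0 of 3 after IOP called the Spi1 region, and with 50% cover 1 of 3 and 0 of 3. For IOP at 18mo the count of 0 was 0 to 1 with 1 library left out. Between the kinds of control, 3 regions passed an adjusted p where peaks had to cover 50% of a region, as did 6814 in the series. Peaks were narrower in untreated libraries, and the part of width in these results was not tested. With the shortest peak as a covariate 1 region passed in height rather than 2, and with 1 library left out 2 to 3 did. The Cx3cr1 window region at 58.6 kb, at -0.13 (adjusted p = 0.0961 in limma), was at -0.22 (adjusted p = 0.0256) with median centring and at -0.17 (adjusted p = 0.0387) without 3mo untreated replicate 4. Over all omissions of 1 library its adjusted p in limma ran from 0.0387 to 0.197. RefSeq gene bounds, chosen after seeing the data, left 0 genes passing in each window comparison.

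Same-numbered libraries did not deviate together in every pair (correlations of -0.31, -0.24 and 0.20 for IOP and contralateral at 3mo, and 0.36, 0.21 and -0.16 at 18mo). With the replicate block 0 windows and 0 regions passed in every comparison it could be fitted to, as without it, and 2 regions of the series passed for age in height rather than 76. For windows after IOP none could pass, as 3 libraries stood against 3. For age the block joins mice of different ages that share only a number. Their libraries correlated at -0.24, -0.45 and -0.15 in contralateral and at 0.02, 0.04 and 0.08 in untreated retinas. The Cx3cr1 window region after IOP had an exact p of 0.125 with the block. Peak lists give no depth, so a region near the caller's threshold can be called in 1 library and missed in another at equal accessibility.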

Other observations

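Further genes of the pathway were examined for peak numbers that separated IOP from contralateral libraries of the same age, over 83 genes of the complement, microglial, reactive and signal lists. The genes named here were chosen after their values were seen. At 3mo 1 of 46 windows whose number varied separated, as lower after IOP, where 0.439% of all tested genes did. It was that of Itgax, an integrin chain of complement receptors, with 1, 1 and 1 peaks in contralateral and 0, 0 and 0 in IOP libraries. At 18mo 3 of 50 separated, all lower after IOP, where 7.42% of all tested genes did. Runx1, a transcription factor of blood cells and microglia, held 12, 7 and 9 peaks in contralateral and 6, 4 and 4 in IOP libraries. Lpl, a lipase raised in reactive microglia, held 3, 2 and 2 and then 0, 1 and 0. C5ar1, the receptor of the complement fragment C5a, held 1, 1 and 1 and then 0, 0 and 0. The smallest exact p that 3 against 3 libraries allow is 0.1, and the 18mo IOP libraries, with 44474 ± 7329 peaks, listed fewer peaks than the 18mo contralateral ones, with 56406 ± 4856 (mean ± SD, n = 3).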
